A study of Homo sapiens with 12 samples.

Results

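The genes described here are 8 genes listed as classic targets of TGF-β and SMAD3 signaling. They are TGFBI, CTGF, CYR61, PMEPA1, LTBP2, BHLHE40, SMURF1 and SMURF2, and were picked by symbol from the 56269 genes of the count table. CTGF and CYR61 are the older symbols, used by the table, of CCN2 and CCN1. HEYA8 cells, an established ovarian cancer line labelled as high grade serous, were profiled by RNA-seq in 12 libraries, 3 for each of 4 stable lines. Cells of the S534A line (CS-BG) expressed betaglycan with alanine in place of the serine that its name gives, which leaves mainly chondroitin sulfate chains, and those of the S545A line (HS-BG) carried the other serine change and mainly heparan sulfate chains. The ∆GAG line carried both changes, so that its construct bears no glycosaminoglycan chain, and the fourth line carried the control vector. All constructs were delivered by lentivirus, infected cells were sorted by their dTomato marker, and all lines were grown at resting state in serum-containing RPMI-1640 with no ligand added. No line given an unmutated betaglycan construct was among these libraries. The study chose HEYA8 cells for their low, rather than absent, expression of their own betaglycan.

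TGF-β ligands bind a pair of receptor kinases at the cell surface, and the activated receptors phosphorylate SMAD2 and SMAD3, which enter the nucleus with SMAD4 and switch target genes on or off. Betaglycan, encoded by TGFBR3, is a co-receptor that presents ligand at the membrane and, once shed, can hold it away from the cell. Several SMAD targets also answer to other inputs, and CTGF and CYR61 are the textbook targets of the YAP and TEAD transcription factors, which respond to cell density, shape and tension.

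The members have different roles. TGFBI is a secreted matrix protein that binds integrins and collagens. CTGF and CYR61 are secreted matricellular proteins of the CCN family, and LTBP2 is a fibrillin-related matrix protein of elastic fibers. PMEPA1 is a membrane protein that binds SMADs and dampens the pathway. BHLHE40 is a transcriptional repressor of the basic helix-loop-helix class, also known from hypoxia and the circadian clock, and SMURF1 and SMURF2 are ubiquitin ligases that mark SMADs and receptors for degradation.

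All 8 members have the same span in the count table as in release 29 of the GENCODE annotation (GRCh38). TGFBI lies on chromosome 5 from 136028895 to 136063818 on the plus strand and CTGF on chromosome 6 from 131948176 to 131951373 on the minus strand. CYR61 lies on chromosome 1 from 85580761 to 85583962 (plus), PMEPA1 on chromosome 20 from 57648392 to 57711536 (minus) and LTBP2 on chromosome 14 from 74498170 to 74612378 (minus). BHLHE40 lies on chromosome 3 from 4979116 to 4985323 (plus), SMURF1 on chromosome 7 from 99027438 to 99144100 (minus) and SMURF2 on chromosome 17 from 64542295 to 64662068 (minus). Exons of 6 members overlap exons of a gene on the other strand, the longest stretch being 735 bases of SMURF1 shared with TRRAP and the next 343 bases of PMEPA1 shared with the antisense RNA NKILA. No source used here gives the strand setting of the counting, so reads in those stretches could belong to either gene.

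RefSeq promoter windows (GRCh38.p14, from 250 bases before to 50 after the start site) were at hand for 7 of the 8 members, CYR61 being the other. Both strands were searched for 4 motifs. The SMAD core, spelled CAGAC, was present in the windows of CTGF, LTBP2, BHLHE40, SMURF1 and SMURF2, that is 5 of 7, and in 45.3% of the 35116 windows of this length. The longer CAGA box, spelled AGACAGAC, holds the SMAD core within it and was matched only in the window of BHLHE40, against 1.31% of all windows. The E-box that BHLHE40 itself can bind, spelled CACGTG, was also matched only in the BHLHE40 window, against 7.26% of all windows. The motif of the TEAD factors, spelled GGAATG, was found in the CTGF window alone among the 7, with 3 matches, against 14% of all windows with at least 1. The part of the window upstream of the annotated gene is shown for CTGF, the member with the TEAD matches, and for the 2 SMURF genes, whose levels moved together across libraries as described further on. Capitals mark matches to the SMAD core and the TEAD motif.
CTGF, chr6:131951374-131951622, minus strand: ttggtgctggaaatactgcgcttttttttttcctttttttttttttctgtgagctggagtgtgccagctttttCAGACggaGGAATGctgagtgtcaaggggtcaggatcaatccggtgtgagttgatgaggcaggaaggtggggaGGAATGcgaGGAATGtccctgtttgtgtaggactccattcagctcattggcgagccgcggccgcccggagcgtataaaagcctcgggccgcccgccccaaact
SMURF1, chr7:99144109-99144358, minus strand: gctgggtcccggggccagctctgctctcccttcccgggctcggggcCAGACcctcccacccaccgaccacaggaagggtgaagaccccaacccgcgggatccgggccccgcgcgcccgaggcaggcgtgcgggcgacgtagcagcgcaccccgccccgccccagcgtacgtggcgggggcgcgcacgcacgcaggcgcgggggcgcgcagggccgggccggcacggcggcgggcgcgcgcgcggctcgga
SMURF2, chr17:64662308-64662557, minus strand: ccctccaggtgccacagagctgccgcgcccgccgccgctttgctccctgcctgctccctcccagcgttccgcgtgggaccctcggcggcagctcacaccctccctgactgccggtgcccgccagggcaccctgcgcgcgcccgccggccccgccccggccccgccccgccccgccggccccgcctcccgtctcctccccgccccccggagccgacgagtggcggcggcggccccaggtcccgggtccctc
In CTGF the SMAD core begins 177 bases before the start and the TEAD matches begin 169, 104 and 95 bases before it. In SMURF1 the SMAD core begins 204 bases before the start, and in SMURF2 the only match crosses the start site and so falls outside the stretch shown. These are matches of letters, and no binding was measured.

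The libraries held 16410001 to 29504297 counts each, and the smallest count of any member in any library was 328. Levels are given as CPM (counts scaled to a common library size by TMM), and as CPM per kilobase of exon (RPKM) where genes are compared with each other. Some libraries stood apart or went against their labels. TGFBR3, the gene of the constructs, was at 413 to 476 CPM in the S534A libraries and 520 to 574 CPM in the S545A libraries. It was at 260 CPM in the library labelled ∆GAG 1 but at 20.3 and 21.4 CPM in those labelled ∆GAG 2 and 3, and at 15.9 CPM in the library labelled control vector 1 but at 259 CPM in each of those labelled control vector 2 and 3. Any direction involving either of these labelled groups therefore rests on labels that TGFBR3 goes against, and S545A against S534A is the comparison that does not. The library S534A 2 was the highest of all 12 for 26.1% of the 16069 genes that passed the filter on low counts, and the library labelled ∆GAG 1 for 16.3%. The chaperone HSPA5, raised by endoplasmic reticulum stress, was at 11860 CPM in ∆GAG 1 and 287 CPM in S534A 2 against 1228 to 3906 CPM elsewhere. Libraries 2 and 3 of S545A, ∆GAG and control vector were closer to each other (chi-square per degree of freedom 1.37 to 1.89) than any other pair within a group (15.6 to 69.1). Counting noise alone would give a value near 1. All 5 leukocyte markers were under 1 CPM in every library, as were 3 of 6 fibroblast markers (DCN, LUM and PDGFRA) and 3 of 10 ovarian carcinoma markers (KRT19, MUC16 and ESR1). Of the other fibroblast markers, COL1A1 was at 7.975 to 17.7 CPM, PDGFRB at 0.70 to 5.04 CPM and COL3A1 at 0 to 1.21 CPM. Of 4 endothelial markers only PECAM1 was under 1 CPM throughout. CDH5 was at 168.5 to 431 CPM, VWF at 2.64 to 14.9 CPM and KDR at 2.00 to 3.77 CPM.

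Per kilobase, the members covered a wide range of abundance. CYR61 had the highest median over the 12 libraries, at 670 RPKM, followed by CTGF at 356 RPKM. SMURF2 came next at 86.1 RPKM, BHLHE40 at 36.5 RPKM, TGFBI at 29.1 RPKM and LTBP2 at 13.5 RPKM. SMURF1 at 5.44 RPKM and PMEPA1 at 3.61 RPKM were the least abundant. The 2 SMURF ligases therefore differed in level in every library, SMURF1 ranging from 4.95 to 6.603 RPKM and SMURF2 from 80.4 to 108 RPKM. TGFBI had the widest range as a fold, from 22.9 to 226 RPKM, which takes in the medians of BHLHE40 and SMURF2.

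**Figure D1:**
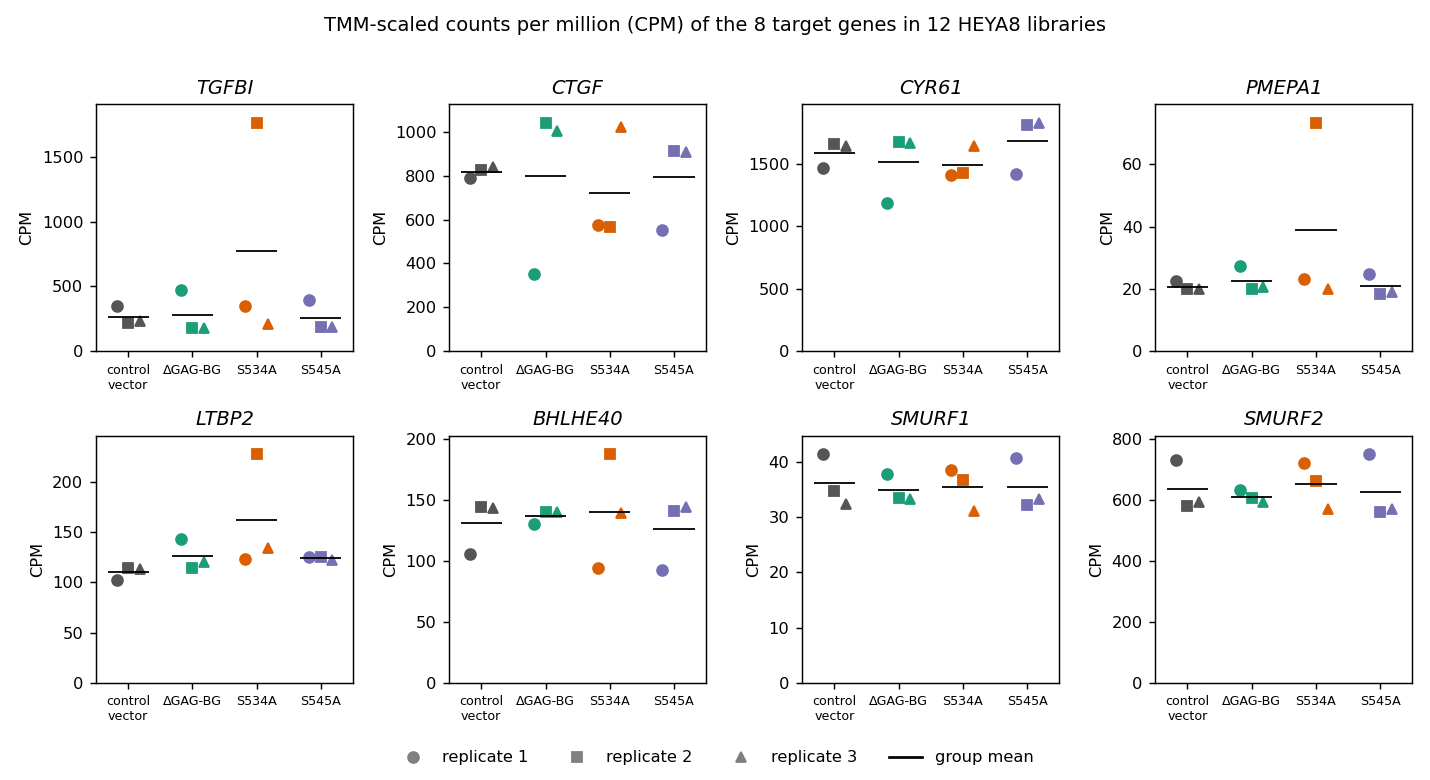
Level of each of the 8 target genes in TMM-scaled CPM (linear axis from 0) in the 12 HEYA8 libraries. Each symbol is 1 library, its shape gives the replicate number and its color the labelled group, and the black line is the mean of 3 libraries. S534A replicate 2 is far above all other libraries for TGFBI (1763 CPM) and PMEPA1 (73.3 CPM).

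Among the matrix proteins, TGFBI varied most. Its level was 346, 220 and 234 CPM in the libraries labelled control vector 1, 2 and 3, and 471, 179 and 182 CPM in those labelled ∆GAG. In S534A it was 352, 1763 and 212 CPM, and in S545A 392, 186 and 188 CPM. S534A 2 was thus 3.74 times the next highest library, replicate 1 was the highest of its group in the other 3 groups, and the ranges of all 4 groups overlapped.

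CTGF was at 787, 826 and 839 CPM in control vector and at 353, 1041 and 1001 CPM in ∆GAG. It was at 577, 564 and 1020 CPM in S534A and at 553, 914 and 909 CPM in S545A. The lowest and the highest of the 12 libraries were both labelled ∆GAG, and the 3 control vector libraries lay inside the range of each other group. CYR61 was at 1468, 1657 and 1642 CPM in control vector and at 1189, 1678 and 1669 CPM in ∆GAG. Its levels were 1412, 1424 and 1646 CPM in S534A and 1419, 1813 and 1830 CPM in S545A. The whole range of CYR61 over 12 libraries was 1.54-fold, against 2.95-fold for CTGF and 9.85-fold for TGFBI, and its groups overlapped in all 6 comparisons.

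LTBP2 was the exception among the members in how its groups lay. It was at 103, 114 and 113 CPM in control vector and 143, 114 and 120 CPM in ∆GAG. S534A gave 123.2, 227.5 and 134.5 CPM, and S545A gave 126, 126 and 122 CPM. All 3 S534A libraries and all 3 S545A libraries were above the 3 labelled control vector, while ∆GAG overlapped every other group. Over all genes, in either direction, 7.65% did not overlap in S534A against control vector and 8.82% in S545A against control vector. Both comparisons rest on the same 3 libraries, whose labels TGFBR3 goes against.

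PMEPA1, the membrane inhibitor, was at 22.4, 19.8 and 19.9 CPM in control vector and 27.4, 20.0 and 20.6 CPM in ∆GAG. It was at 23.1, 73.3 and 19.9 CPM in S534A and 24.9, 18.5 and 19.0 CPM in S545A. As for TGFBI, S534A 2 stood far above the rest, the library labelled ∆GAG 1 came second and the 4 groups overlapped.

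The transcription factor BHLHE40 was at 105, 144 and 143 CPM in control vector and at 130, 140 and 140 CPM in ∆GAG. S534A had 94.3, 187 and 139 CPM and S545A 92.8, 140 and 144 CPM. Replicate 1 was the lowest of its group in all 4 groups and S534A 2 the highest library of all.

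The ubiquitin ligases varied least. SMURF1 was at 41.4, 34.8 and 32.4 CPM in control vector, 37.9, 33.4 and 33.4 CPM in ∆GAG, 38.6, 36.8 and 31.1 CPM in S534A and 40.8, 32.2 and 33.4 CPM in S545A. SMURF2 was at 733, 580 and 593 CPM in control vector, 634, 606 and 593 CPM in ∆GAG, 721, 662 and 571 CPM in S534A and 750, 559 and 570 CPM in S545A. Replicate 1 was the highest library of its group for both genes in all 4 groups, and the total spread over 12 libraries was 1.33-fold for SMURF1 and 1.34-fold for SMURF2.

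The design asks whether the type of chain on betaglycan changed steady-state expression. Each comparison was fitted with edgeR's quasi-likelihood test in 1 model of the 12 libraries, with Benjamini-Hochberg adjustment over 16069 genes, and a call means an adjusted p under 0.05. All groups share 1 estimate of the spread. The errors and p-values of S545A against S534A therefore also draw on the ∆GAG and control vector libraries. No gene was called in any of the 6 comparisons between groups, that is 0% of the genes tested. DESeq2 called 1 gene in S545A against S534A, 5 in S534A against ∆GAG and 2 in S534A against control vector, and limma-voom called 1 in each of these. The unadjusted p is therefore used to describe the members, read against the share of all genes under the same limit. Within a bulk library, fewer cells expressing a gene and less RNA per cell cannot be told apart.

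The mainly chondroitin sulfate and mainly heparan sulfate forms were compared directly as S545A against S534A. The study's enzyme digestion found both kinds of chain on S534A betaglycan, so this is not a contrast of pure chain types. TGFBI and PMEPA1 were lower in S545A, and the other 6 members had unadjusted p above 0.05. With 2 of 8 members at an unadjusted p under 0.05, the background was 4.78% of all genes. For TGFBI the log2 fold change was -1.60 ± 0.69 (SE), a level 0.329 times that of S534A with a 95% interval of 0.115 to 0.943, and its unadjusted p was 0.0402 (adjusted p = 0.702, exact permutation p = 0.3). For PMEPA1 it was -0.90 ± 0.40 with an unadjusted p of 0.0426 (adjusted p = 0.702, exact permutation p = 0.5). Without S534A 2 the same fit gave -0.14 for TGFBI (unadjusted p = 0.769) and -0.05 for PMEPA1 (unadjusted p = 0.783), so both differences were carried by that library. Leaving out S545A 2 or S545A 3 kept most of the difference, at -1.42 for TGFBI in both fits and -0.83 and -0.84 for PMEPA1, with unadjusted p of 0.102 and 0.0996 for TGFBI and 0.0954 and 0.092 for PMEPA1. With the replicate number as a block the values were -1.47 (unadjusted p = 0.0615) and -0.79 (unadjusted p = 0.0751), and the count of members went from 2 to 0.

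For LTBP2 the log2 fold change in S545A against S534A was -0.38 ± 0.19 (unadjusted p = 0.0659), and -0.05 without S534A 2. Left out in turn, S534A 1 and S534A 3 brought LTBP2 under the limit, with p of 0.0124 and 0.028. CTGF differed by 0.14 ± 0.36 with a 95% interval of -0.66 to 0.93, and CYR61 by 0.17 ± 0.14 with an interval of -0.13 to 0.48. BHLHE40 differed by -0.16 ± 0.23 with an interval of -0.66 to 0.35. The SMURF genes had the narrowest intervals, SMURF1 with 0.00 ± 0.13 (-0.28 to 0.28) and SMURF2 with -0.06 ± 0.13 (-0.35 to 0.24). The median over the 8 members was -0.11, against 0.00 over all genes. No member had groups that did not overlap, against 10.1% of all genes, and the exact permutation test of 3 against 3, whose smallest p is 0.1, gave 0.3 to 1 for the members.

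**Figure D2:**
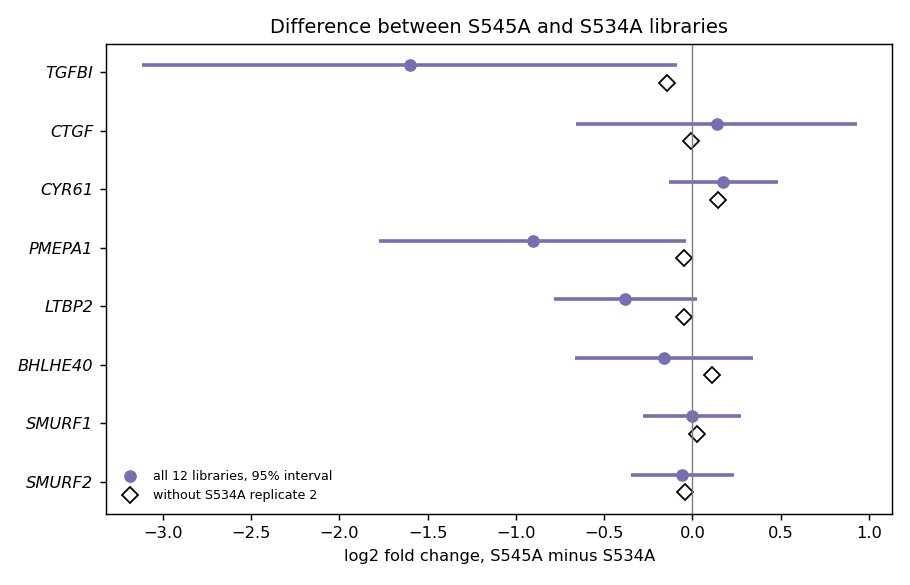
Log2 fold change of each target gene in S545A minus S534A. Filled circles and bars are the estimate and 95% interval from 12 libraries, and open diamonds the estimate without S534A replicate 2, where TGFBI goes from -1.60 to -0.14 and PMEPA1 from -0.90 to -0.05.

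S534A against the libraries labelled control vector gave 3 members with an unadjusted p under 0.05, all higher in S534A, against 3.45% of all genes in both directions. LTBP2 was higher by 0.56 ± 0.19 on the log2 scale (unadjusted p = 0.0115, adjusted p = 0.871), TGFBI by 1.54 ± 0.69 (unadjusted p = 0.0468, adjusted p = 0.871) and PMEPA1 by 0.91 ± 0.40 (unadjusted p = 0.0415, adjusted p = 0.871). The exact permutation p was 0.1 for LTBP2, 0.6 for TGFBI and 0.2 for PMEPA1. Without S534A 2 the values were 0.08 for TGFBI (unadjusted p = 0.87) and 0.05 for PMEPA1 (unadjusted p = 0.757). Leaving out any of the control vector libraries kept log2 fold changes of 1.42 to 1.77 for TGFBI and 0.88 to 0.97 for PMEPA1, with p of 0.0591 to 0.106 and 0.0677 to 0.0812. With the replicate number as a block they were 1.35 (unadjusted p = 0.0792) and 0.80 (unadjusted p = 0.0724), and the count of members went from 3 to 1. For LTBP2 the difference was 0.23 without S534A 2 (unadjusted p = 0.043), a change of over 1.5 times in its size, and it kept an unadjusted p under 0.05 in all 15 alternative fits, with log2 fold changes of 0.23 to 0.71. LTBP2 was the only member whose groups did not overlap here, against 7.65% of all genes.

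In S545A against the same libraries labelled control vector, LTBP2 again did not overlap, against 8.82% of all genes. LTBP2 was higher there by 0.18 ± 0.19 on the log2 scale (unadjusted p = 0.355), and the exact permutation p was 0.1, the smallest that 3 against 3 allows. This comparison and that of S534A share the control libraries. No member had an unadjusted p under 0.05, against 1.05% of all genes, and the median over the members was -0.03.

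Against the libraries labelled ∆GAG, no member had an unadjusted p under 0.05 in either single-chain line, where the share of all genes was 2.99% for S534A and 1.1% for S545A. In S534A against ∆GAG the member with the smallest p was TGFBI, higher by 1.48 ± 0.69 on the log2 scale (unadjusted p = 0.0538), and the value was 0.03 without S534A 2. It passed the limit without ∆GAG 1 (2.11, unadjusted p = 0.0205), without S534A 1 (1.83, unadjusted p = 0.0286) and without S534A 3 (1.93, unadjusted p = 0.00791). In S545A against ∆GAG it was CYR61, with 0.16 ± 0.14 (unadjusted p = 0.287). In ∆GAG against control vector it was LTBP2, with 0.20 ± 0.19 (unadjusted p = 0.316), and the share of all genes there was 0.871%. No member was without overlap in these 3 comparisons, against 5.66%, 5.05% and 4.87% of all genes in the order given.

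CTGF and CYR61 were added for the comparisons with ∆GAG after their values were seen, because 1 library, labelled ∆GAG 1, was the lowest of all 12 for both. CTGF was at -0.15 ± 0.36 in S534A against ∆GAG, -0.01 ± 0.36 in S545A against ∆GAG and -0.03 ± 0.36 in ∆GAG against control vector. Without ∆GAG 1 these became -0.50, -0.36 and 0.31, and none had a p under 0.05 (0.083, 0.196 and 0.258). CYR61 was at -0.02, 0.16 and -0.07 with that library and -0.16, 0.02 and 0.07 without it. That library also had the highest HSPA5 of the 12, and its part in the CTGF level was not tested.

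A test of any difference among the 4 groups called 1 of the 16069 genes (0.00622%), which was no member, and 1.55% of all genes had an unadjusted p under 0.05 in it. The smallest unadjusted p among the members were 0.061 for LTBP2, 0.0746 for TGFBI and 0.0965 for PMEPA1, and those of the other 5 ran from 0.605 to 0.98.

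The library S534A 2 was described further against the median of the other 11 libraries, without a test since it is a single library. TGFBI was 8.02 times that median and PMEPA1 3.65 times, LTBP2 1.86 times and BHLHE40 1.34 times. SMURF2 and SMURF1 were 1.11 and 1.10 times the median. CYR61, at 0.865 times, and CTGF, at 0.673 times, were below it, so the 8 target genes did not move as a block in this library. It was the highest of the 12 libraries for 4 of the 8 members and the lowest for none, against 26.1% and 25.4% of all genes.

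A list of 54 other known TGF-β target genes was examined in the same library, of which 50 passed the filter. S534A 2 was the highest of the 12 libraries for 31 of them and the lowest for 5, against the same 26.1% and 25.4% of all genes, and exceeded the median of the other 11 by over 1 on the log2 scale for 17, compared with 2.97% of all genes. Only 1 was lower by over 1, compared with 5.36% of all genes, and the median difference was 0.61 over the list and 0.01 over all genes. The inhibitory SMAD7 was at 21.0 CPM against a median of 6.50 CPM, and the differentiation inhibitor ID1 at 168 CPM against 46.7 CPM. The collagen gene COL5A1 was at 37.5 against 9.85 CPM, and ANGPTL4, a secreted inhibitor of lipoprotein lipase, at 56.1 against 1.21 CPM. SMAD7, ID1, COL5A1 and ANGPTL4, all higher in S534A 2, were chosen after their values were seen. The 5 targets for which S534A 2 was the lowest library were FN1, COL1A1, TGIF1, ZEB1 and NEDD9. FN1 was at 321 CPM against a median of 494 CPM, COL1A1 at 7.975 against 9.947 CPM and NEDD9 at 2.136 against 7.938 CPM. The counts over the list took no expected direction of its genes into account. SMAD3 was at 256 CPM in S534A 2, its lowest level of the 12 libraries (274 to 359 CPM in the others).

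**Figure D3:**
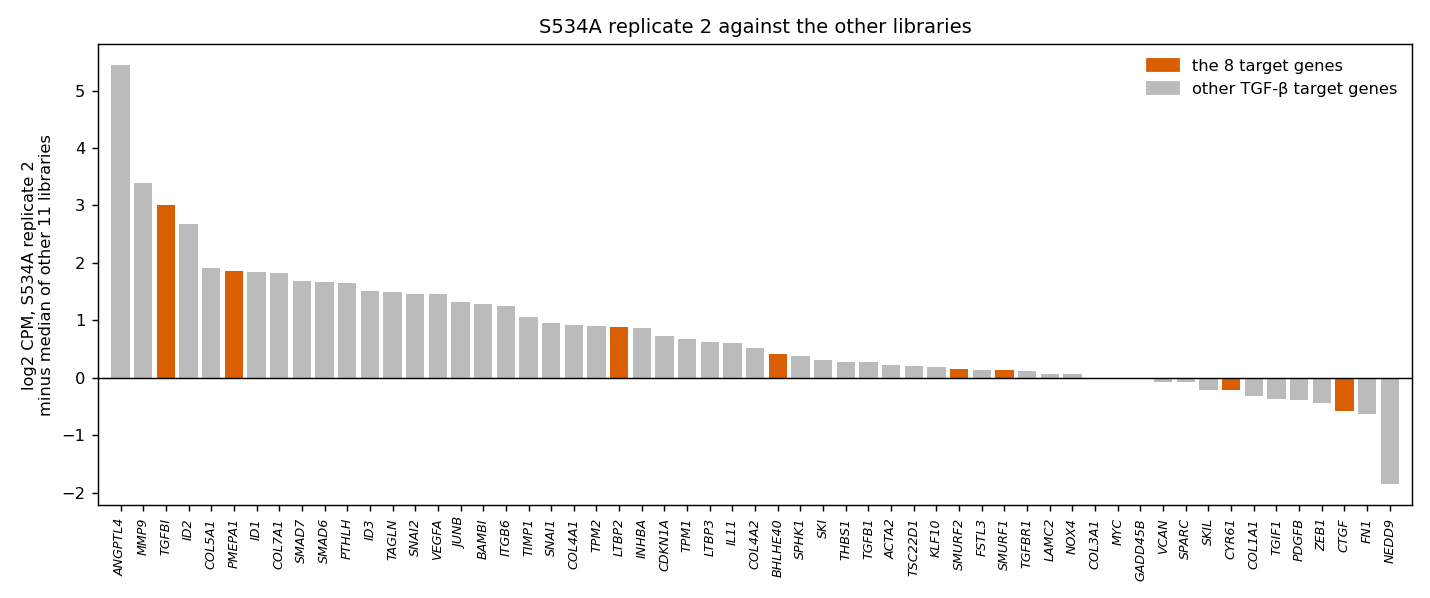
Difference in log2 CPM between S534A replicate 2 and the median of the other 11 libraries, 1 bar per gene, for the 8 target genes (orange) and other TGF-β target genes tested (grey). TGFBI (3.004) and PMEPA1 (1.87) are among the tallest bars, while CYR61 (-0.21) and CTGF (-0.57) lie below 0.

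The other TGF-β targets were then counted over groups. In S545A against S534A, 2 of the 50 were higher and 5 lower at an unadjusted p under 0.05, against 4.78% of all genes, none passed adjustment, and the list's median log2 fold change was -0.23. The smallest p belonged to ANGPTL4 (-3.42 ± 1.23, unadjusted p = 0.0176), ID2, an inhibitor of DNA binding (-1.87 ± 0.68, unadjusted p = 0.0179), and the inhibitory SMAD6 (-1.19 ± 0.46, unadjusted p = 0.023). The count of 7 depended on single libraries. It was 1 without S534A 2, 1 without S545A 2 and 3 without S545A 3, and it was 20 without S534A 3. In S534A against ∆GAG 3 were higher and 1 lower, against 2.99% of all genes, led by FN1, which encodes fibronectin (-1.33 ± 0.34, unadjusted p = 0.002), ANGPTL4 (3.25 ± 1.23, unadjusted p = 0.0224) and ID2 (1.82 ± 0.69, unadjusted p = 0.0225). That total of 4 was 2 without S534A 2, 8 without ∆GAG 1, 14 without S534A 1 and 20 without S534A 3. FN1 did not rest on S534A 2, since it was at 493, 321 and 430 CPM in S534A and at 1412, 830 and 896 CPM in ∆GAG. In control vector FN1 was at 1035, 434 and 437 CPM, which overlapped S534A. The FN1 difference from ∆GAG rests on labels that TGFBR3 goes against.

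Of 22 YAP and TEAD target genes, which include CTGF and CYR61, 2 were higher and 1 was lower in S545A against S534A at an unadjusted p under 0.05, against 4.78% of all genes, with a median of 0.16. They were IGFBP3, a carrier of insulin-like growth factors (-1.81 ± 0.66, unadjusted p = 0.0185), the kinase gene NUAK2 (0.77 ± 0.30, unadjusted p = 0.0261) and the phosphatase gene PTPN14 (0.33 ± 0.13, unadjusted p = 0.0287). In S534A against ∆GAG only IGFBP3 was under the limit, with 1.61 ± 0.66 (unadjusted p = 0.0316), against 2.99% of all genes. IGFBP3 was at 28.6, 153 and 18.2 CPM in S534A, 14.2 to 26.9 CPM in ∆GAG and 16.2 to 24.1 CPM in S545A, so S534A 2 alone stood out. Neither CTGF nor CYR61 was under it in any of the 6 comparisons.

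With S534A 2 set aside, most of the variance of 7 members lay between replicate numbers and little between labelled groups. The share of the variance of log2 CPM between replicate numbers 1, 2 and 3 was 90.1% for TGFBI, 88.2% for SMURF1, 81.9% for SMURF2, 79.1% for PMEPA1, 76.3% for BHLHE40, 75.6% for CYR61 and 65.8% for CTGF. The share between groups was 1.9% to 13.7% for these 7. LTBP2 showed the opposite, with 4.4% between replicate numbers and 51.2% between groups. Over all genes the medians were 23.8% and 18.3%. Both shares were computed separately and describe 11 libraries. In ∆GAG and control vector, replicate 1 also differed from replicates 2 and 3 in TGFBR3, against the labels. Libraries 2 and 3 of S545A, ∆GAG and control vector were also close to each other. The shares cannot tell replicate number from these differences, and so do not measure how much genotype matters.

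**Figure D4:**
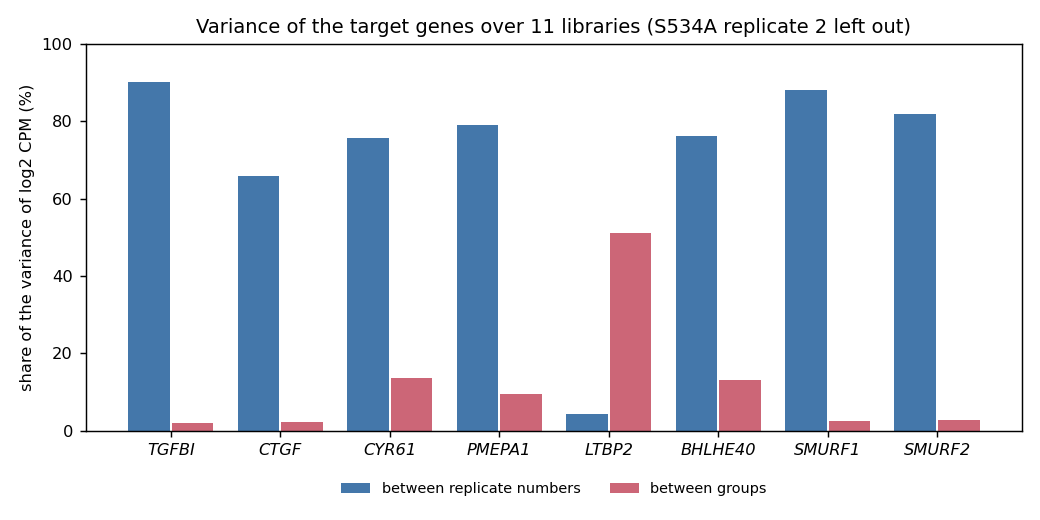
Share of the variance of log2 CPM of each target gene that lies between replicate numbers (blue) and between labelled groups (red), in percent, over 11 libraries with S534A replicate 2 left out. LTBP2 is the only member with the taller bar between groups (51.2% against 4.4%).

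The direction of the replicate pattern split the members. Outside S534A, replicate 1 was the highest of its group in all 3 groups for TGFBI, PMEPA1, SMURF1 and SMURF2, as it was for 10.2% of all genes, and the lowest for CTGF, CYR61 and BHLHE40, as for 11.9% of all genes. In S545A the log2 difference of replicate 1 from the mean of the other 2 was 1.06 for TGFBI, 0.40 for PMEPA1, -0.72 for CTGF and -0.36 for CYR61. The largest of these were in the library labelled ∆GAG 1, with 1.39 for TGFBI and -1.53 for CTGF. The labels give the replicate numbers no batch, date or culture, and what they share was not tested.

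The members thus fell into pairs whose levels ran together. Pearson's r of log2 CPM over the 12 libraries was 0.96 for TGFBI with PMEPA1, 0.92 for CTGF with CYR61 and 0.93 for SMURF1 with SMURF2, and without S534A 2 it was 0.94, 0.91 and 0.93. With S534A 2 set aside, TGFBI and PMEPA1 ran opposite to CTGF and CYR61, with r from -0.97 to -0.91, and in the same direction as the SMURF genes, with r from 0.72 to 0.84. Outside these pairs, BHLHE40 ran opposite to SMURF2, at -0.96. Over all 12 libraries the values were -0.69 for TGFBI with CTGF and -0.51 for PMEPA1 with CYR61. For LTBP2 the value depended on that library, with 0.83 against TGFBI over 12 libraries and 0.25 over 11. The points are the same libraries throughout and share depth, replicate number and label, so these values describe the libraries.

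**Figure D5:**
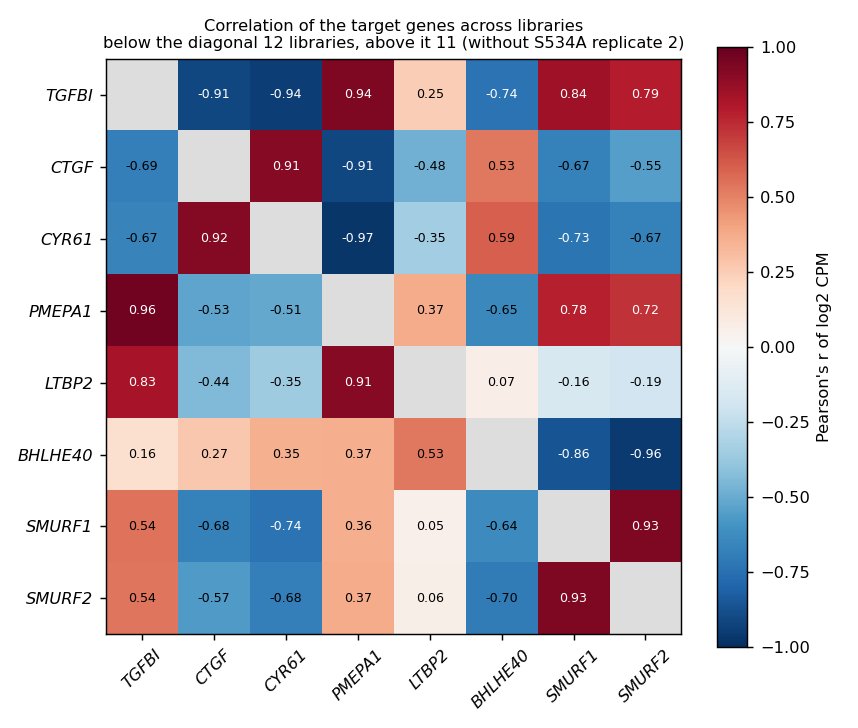
Pearson's r between the log2 CPM of each pair of target genes, as a color and a number, over 12 libraries below the diagonal and over 11 libraries, without S534A replicate 2, above it. TGFBI with PMEPA1 and CTGF with CYR61 are above 0.9 on both sides.

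Among 13398 genes with a mean of at least 1 CPM, the closest to the members by r over 12 libraries were genes outside these lists. Among them were TBX3 and NFKBIE for TGFBI (both 0.99), EML3 and DBNL for PMEPA1 (both 0.99), CAV1 and S1PR1 for CTGF (both 0.98) and DKK1 for CYR61 (0.97). For LTBP2 they were SLC38A10 and PPP6R2 (both 0.97), for BHLHE40 SLC2A1 (0.98) and LGALS3 (0.97), for SMURF1 AHCY (0.97) and TUFM (0.96), and for SMURF2 NSUN2 (0.98) and TUFM (0.97). TUFM was shared by the 2 SMURF genes. Without S534A 2 the values were 0.854 and 0.857 for LTBP2 and 0.914 for PMEPA1 with EML3. The others named here were at 0.959 or above without it.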

How the data were processed

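The authors deposited 1 table of raw counts per gene, without normalization, for the 12 libraries. The submitters' processing notes name FastQC, Trim Galore 0.4.5, STAR 2.4, SAMtools 1.2 and featureCounts, and list the mouse builds mm10 and GRCm38, while the table's members have GRCh38 coordinates. The strand setting is not given in the sources used here. Library S545A 3 is titled S545S but has the genotype label S545A, and was used as such. No per-sample column was left unused. A few genes that the naming rule or the lists hold are not reported here.

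Genes were filtered with filterByExpr at a minimum count of 10. TMM factors were applied, and edgeR 4.0.16 under R 4.3.3 fitted a robust quasi-likelihood model with the 4 groups as the only term. Log2 CPM used a prior count of 2. The 8 members and all gene lists were chosen with earlier results of these data known. All members are given by level, with log2 fold changes for all 8 in S545A against S534A and otherwise for those with an unadjusted p under 0.05 or, failing that, the smallest p. From the other lists at most 3 genes with the smallest unadjusted p under 0.05 are named for S545A against S534A and S534A against ∆GAG, and the 2 closest genes by correlation for each member. Alternatives were DESeq2 1.42.0, limma 3.58.1 (voom), other scalings, no filter, only 2 groups, each library left out, libraries 2 and 3 summed, and the replicate number as a block. Leaving out S534A 2 and ∆GAG 1 together was chosen after seeing the data. For S545A and control vector, the deviations of same-numbered libraries from their own groups correlated at 0.60, 0.30 and 0.29. Deviations from a group's own mean cancel out, and libraries 2 and 3 were close to each other in both groups. These correlations are therefore not independent, and do not show that numbers 2 and 3 each pair libraries. On this evidence alone the numbers may pair libraries in that comparison. The values given for it come from the model without a block, and the block changed no call there. The pipeline was tested on simulated data, with independent libraries and the same spread for every gene. That simulation held no library that stands apart and no pair of closely alike libraries, so it gives no error rate for the present data. Total counts of 16410001 to 29504297 set the precision, and p-values measure the spread between libraries. In S545A, ∆GAG and control vector, libraries 2 and 3 differed little more than counting noise alone would give. The labels do not say whether they are separate cultures. If they are not, the groups hold fewer independent samples than libraries, and the p-values may be too small.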

Additional observations from a re-analysis of the deposited data

How the results depend on the processing

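With no gene called in the main test, a single gene was called in S545A against S534A by DESeq2, by limma-voom and with no filter on low counts, and DESeq2 called 5 in S534A against ∆GAG and 2 in S534A against control vector (1 each by limma-voom and with no filter). The 1 gene called among the 4 groups was lost (0) with libraries 2 and 3 summed and with both S534A 2 and ∆GAG 1 left out. Leaving out single libraries called 0 genes in every comparison. The count of members with an unadjusted p under 0.05 in S545A against S534A, 2, was 0 with no filter, limma-voom, only the 2 groups, the replicate block, libraries 2 and 3 summed, and both libraries left out, and 0 to 3 with single libraries left out. In S534A against control vector, 3 became 1, which was LTBP2, under the same 6 settings, and 1 to 3 with single libraries left out. In S534A against ∆GAG it was 1 with DESeq2 and with library size only, and 0 to 3 with single libraries left out. In S545A against control vector it was 1, again LTBP2, with only the 2 groups (unadjusted p = 0.0206) and with both libraries left out (unadjusted p = 0.0127).

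Directions turned for small differences. In S545A against S534A, CTGF was at -0.011 and BHLHE40 at 0.11 with both libraries left out, SMURF1 at 0.022 there and 0.053 with libraries 2 and 3 summed, and SMURF2 at 0.016 summed. With single libraries left out, CTGF ran from -0.007 to 0.47, BHLHE40 from -0.37 to 0.11, SMURF1 from -0.11 to 0.068 and SMURF2 from -0.20 to 0.03. In S534A against ∆GAG, CTGF was at 0.07 summed (-0.50 to 0.092 with single libraries left out) and CYR61 at 0.064 summed and 0.004 with library size only (-0.16 to 0.066). In S545A against ∆GAG, CTGF was at 0.11 with limma-voom, 0.05 with the replicate block and 0.10 summed (-0.36 to 0.23). In ∆GAG against control vector, with both libraries left out, CTGF was at 0.32 and CYR61 at 0.075 (-0.28 to 0.31 and -0.16 to 0.066). The causes were not tested.

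In the 5 comparisons other than S545A against control vector, same-numbered libraries did not deviate together in every pair over all genes (correlations from -0.24 to 0.39), and no source used here says what the numbers share, although 7 members varied with them. With 3 libraries a group, TGFBI in S545A against S534A had a 95% interval of -3.12 to -0.09, and the narrowest, that of SMURF1, was -0.28 to 0.28, so smaller differences were not detectable.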
